A study of Homo sapiens with 6 samples.

Results

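The genes described here encode the machinery that displays peptides to CD4+ T cells and the ligands that costimulate those cells: the class II chains HLA-DRA, HLA-DRB1, HLA-DPA1 and HLA-DPB1, the peptide editor chains HLA-DMA and HLA-DMB, the invariant chain CD74, the class II transactivator CIITA, and the B7 ligands CD80 and CD86. They were taken by gene symbol, and all 10 were found among the 26364 genes of the table. RNA of MV4-11, an established human acute myeloid leukaemia line carrying FLT3-ITD, an internal tandem duplication of a receptor tyrosine kinase, was sequenced after 18 hours with 22d at 10 nM (3 libraries) or with the vehicle DMSO (3 libraries). 22d is known as an inhibitor of the deacetylase HDAC8. All libraries come from 1 cell line. The labels do not name separate cultures for the replicates, and p-values therefore rest on a spread between libraries that may be technical.

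Class II molecules are heterodimers of an alpha and a beta chain that assemble with the invariant chain in the endoplasmic reticulum and travel to endosomes. There, cathepsins trim the invariant chain to a fragment, and HLA-DM, the dimer of HLA-DMA and HLA-DMB, exchanges that fragment for antigenic peptides. Transcription of these genes depends on CIITA, a coactivator that does not bind DNA itself but docks on RFX, CREB and NF-Y factors assembled at conserved X and Y boxes upstream of class II genes. CD80 and CD86 bind CD28 and CTLA4 on T cells. In the myeloid lineage, class II and B7 genes are features of monocytes, macrophages and dendritic cells.

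Upstream sequences are shown for 3 members that rose and 2 that did not pass the test. In class II genes the X and Y boxes read by the CIITA complex lie in or near this stretch, and CD86, a B7 gene, is shown beside them. Each runs 5′ to 3′ on the gene's strand from base 160 to base 41 before the RefSeq start (GRCh38.p14); for CD86, which has 2 starts in the table, the first is shown. Capitals mark the letters TGATGATG, which fall in the X box region, CTGATTGG, a Y box form, and its core CCAAT (read as ATTGG on the other strand, letters that also end CTGATTGG).
HLA-DMA (chr6:32953138-32953257, minus strand): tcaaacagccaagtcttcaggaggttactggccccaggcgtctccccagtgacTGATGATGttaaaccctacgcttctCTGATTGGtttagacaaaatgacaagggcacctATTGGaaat
HLA-DMB (chr6:32941069-32941188, minus strand): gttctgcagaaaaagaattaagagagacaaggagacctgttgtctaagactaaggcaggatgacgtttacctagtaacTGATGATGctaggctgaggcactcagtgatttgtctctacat
CD86 (chr3:122055202-122055321, plus strand): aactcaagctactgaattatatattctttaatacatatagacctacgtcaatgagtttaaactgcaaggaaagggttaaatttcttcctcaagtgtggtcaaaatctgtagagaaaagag
HLA-DRB1 (chr6:32589889-32590008, minus strand): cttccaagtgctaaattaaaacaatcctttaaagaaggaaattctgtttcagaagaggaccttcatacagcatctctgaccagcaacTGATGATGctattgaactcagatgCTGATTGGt
CD74 (chr5:150412951-150413070, minus strand): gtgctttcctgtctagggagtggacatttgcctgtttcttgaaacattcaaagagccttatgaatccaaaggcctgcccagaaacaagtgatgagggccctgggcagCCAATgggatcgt

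The search covered both strands of the 250 bases before each start. HLA-DMA and HLA-DRB1 hold TGATGATG followed by CTGATTGG, a pair of matches present in 12 of 35116 windows of that length in the table (0.0342%). HLA-DMB holds TGATGATG, found in 0.795% of windows, without CTGATTGG, which is in 3.81%. Outside the printed stretches, CCAAT on either strand also lies at base 22 before the HLA-DMB start and at base 195 before the HLA-DRB1 start. CD74 holds CCAAT alone, which is in 32.0% of windows, and neither CD86 window holds any of the searched letters. Of the members not printed, HLA-DPA1, which limma called higher though not in every setting, and CD80 hold none of them. HLA-DPB1, which did not pass, holds CCAAT at 2 places. The letters thus occur before both HLA-DMA, which rose, and HLA-DRB1, which did not pass. Such matches describe the letters and not a binding site.

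With 22d, CIITA, HLA-DMA, HLA-DMB, HLA-DPA1 and CD86 rose, whereas HLA-DRA, HLA-DRB1, HLA-DPB1 and CD74 did not pass the test. CD80 held too few reads to be tested. Of the 9 members that averaged 10 normalized counts or more, 5 were called higher and 0 lower by limma at an adjusted p under 0.05, and at an unadjusted p under 0.05 or with edgeR and DESeq2 the number lower was also 0. Over all 13297 genes tested, 58.0% were called, 28.5% higher and 29.6% lower. The same 5 members were called and at least 2-fold higher, as were 9.9% of all genes tested. With edgeR 5 members were called higher (29.8% of all genes tested), with DESeq2 4 (27.9%) and 4 also in the authors' deposited table (22.7%). HLA-DPA1, whose groups overlapped, was not called with DESeq2 or in the deposited table. Without DMSO replicate 1, 7 were called higher (24.6%), with scaling by library totals 7 (39.7%), and with no filter on low values 5 (19.7%). The median log2 fold change of these 9 members was 1.06, against 0.005 over all genes tested. In 4 of the 9, all 22d libraries lay above all DMSO libraries, as was the case for 32.1% of all genes tested, and the groups lay apart in either direction for 65.4%. The libraries held between 19995430 and 23749257 reads in genes; levels below are normalized counts, in which a single read equals 0.84 to 1.14. Reads fell in 19285 genes in 22d replicate 3 and in 16268 to 17055 genes in the other libraries, and without 22d replicate 3 the number of members called higher was again 5.

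**Figure D1:**
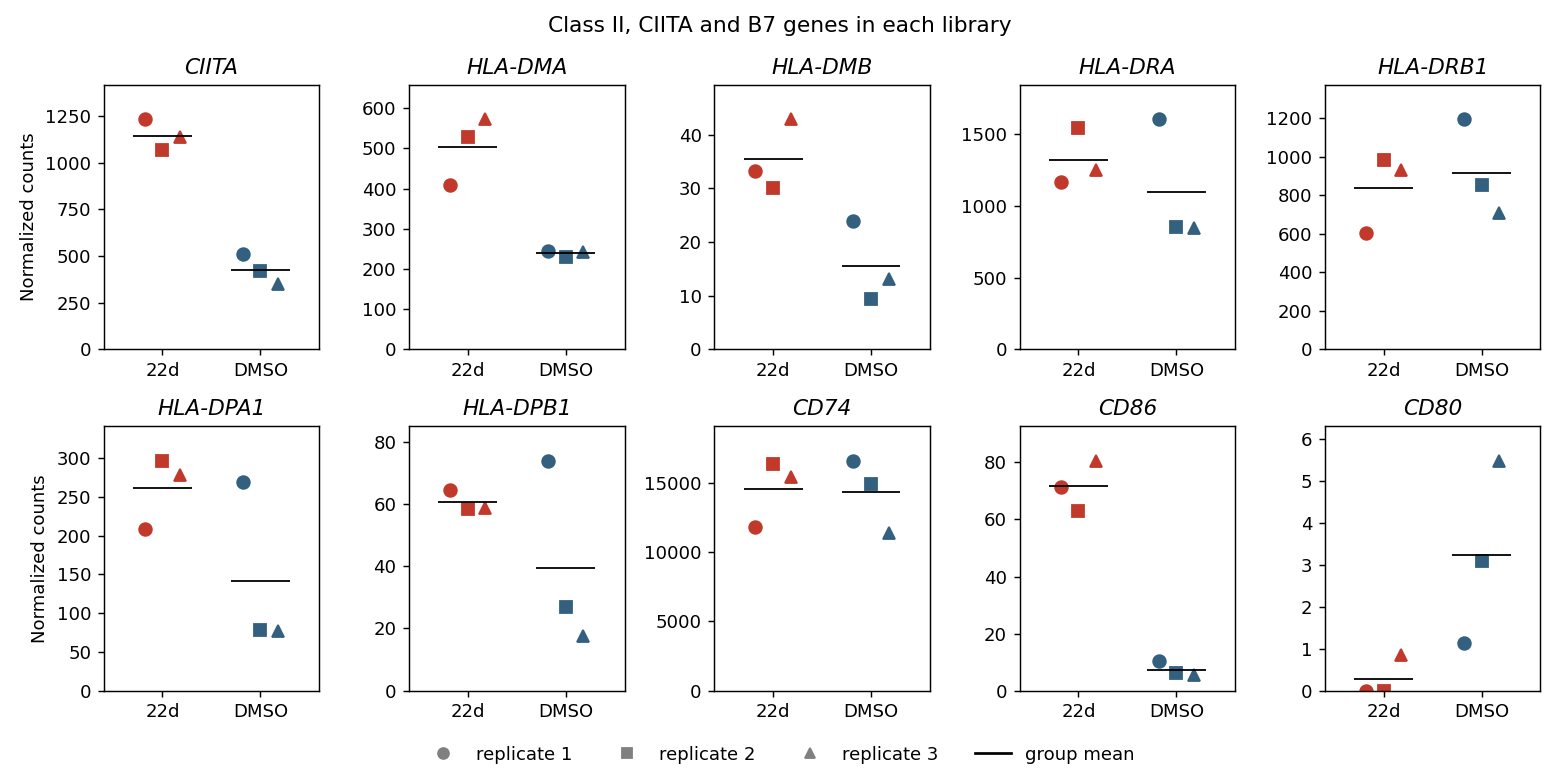
Normalized counts of the 10 members in each library, on axes that start at 0, with 22d left of DMSO in each panel, a marker shape for each replicate and a line at the group mean. The 22d libraries lie above the DMSO libraries for CIITA, HLA-DMA, HLA-DMB and CD86, and DMSO replicate 1 lies among or above the 22d libraries for the DR and DP chains.

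CIITA (chromosome 16, 10866222 to 10943021 in GENCODE 29 on GRCh38) encodes the coactivator on which class II transcription depends. It held 1233, 1067 and 1138 normalized counts in the 22d libraries, against 510, 418 and 350 in the DMSO libraries. Every 22d library lay far above the highest DMSO library. CIITA averaged 1146 ± 83.3 in 22d libraries and 426 ± 80.2 in DMSO libraries (n = 3 each, SD). On the log2 scale the change was 1.44 (SE 0.14, limma adjusted p = 3.1e-06). DEXI and AC133065.1 overlap CIITA on the opposite strand and AC133065.3 on the same strand.

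HLA-DMA (chromosome 6, 32948613 to 32969094), the alpha chain of the peptide editor, held 410, 528 and 572 normalized counts with 22d and 245, 230 and 242 with DMSO. The DMSO libraries were close together and all lay below the 22d libraries. The log2 fold change was 1.06 (SE 0.15, limma adjusted p = 5.4e-05). In GENCODE 29 HLA-DMA overlaps BRD2 on the opposite strand. Without a stated strand setting of the counting, reads in the overlapping part cannot be told apart. The upstream sequence printed for HLA-DMA, from RefSeq, lies inside this GENCODE span. AL645941.2 overlaps both HLA-DMA and HLA-DMB on the same strand, so reads of these 2 genes may also be shared or dropped, which bears on their levels and on their ratio.

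HLA-DMB (chromosome 6, 32934629 to 32941070), the beta chain of the same dimer, was far lower, with 33.2, 30.1 and 42.8 normalized counts with 22d and 23.9, 9.31 and 13.2 with DMSO. The groups did not overlap, although the reads behind them were few: 34, 33 and 51 with 22d and 21, 9 and 12 with DMSO. Its log2 fold change was 1.23 (SE 0.36, limma adjusted p = 0.011). Within each library the log2 ratio of HLA-DMA to HLA-DMB averaged 3.79 ± 0.26 in 22d libraries and 3.96 ± 0.60 in DMSO libraries (n = 3 each, SD). That difference of -0.17 did not pass (exact two-sided permutation p = 0.7, 0.7 after Benjamini-Hochberg adjustment over 5 ratios; 3 against 3 libraries cannot give less than 0.1).

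Both chains of the DM dimer were thus called higher, whereas of the 4 DR and DP chains HLA-DPA1 alone was. HLA-DRA (chromosome 6, 32439842 to 32445046), the shared alpha chain of DR molecules, held 1166, 1541 and 1255 normalized counts with 22d and 1605, 851 and 844 with DMSO. DMSO replicate 1 was the highest of all 6 libraries, while the other two DMSO libraries were the lowest. The log2 fold change was 0.32 (SE 0.21, 95% interval -0.13 to 0.77, limma adjusted p = 0.2), and without DMSO replicate 1 it was 0.63 and passed (adjusted p = 0.0036).

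HLA-DRB1 (chromosome 6, 32578769 to 32589848), a beta chain that pairs with HLA-DRA, held 602, 983 and 929 normalized counts with 22d and 1194, 853 and 708 with DMSO. The groups overlapped, with 22d replicate 1 lowest and DMSO replicate 1 highest. The log2 fold change was -0.13 (SE 0.20, 95% interval -0.57 to 0.31, limma adjusted p = 0.6), and its sign changed with scaling by library totals, at 0.091. HLA-DRB1 resembles HLA-DRB5 closely and class II alleles vary between people, so reads of the 2 genes may be split or lost in counting, and these levels are uncertain. The log2 ratio of HLA-DRA to HLA-DRB1 was 0.95, 0.65 and 0.43 with 22d and 0.43, -0.003 and 0.25 with DMSO. This difference of 0.45 had the smallest exact p that 3 against 3 libraries allow (0.1 two-sided, 0.25 after adjustment over the 5 ratios).

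HLA-DPA1 (chromosome 6, 33064569 to 33080775), the DP alpha chain, held 208, 297 and 279 normalized counts with 22d and 270, 78.6 and 76.8 with DMSO. DMSO replicate 1 lay within the 22d libraries, and the other two DMSO libraries were far below them. The log2 fold change was 1.13 (SE 0.37, limma adjusted p = 0.019). The call depended on the test: edgeR's adjusted p was 0.046, DESeq2's was 0.21, and in the authors' deposited table it was 0.25. It was also lost without DMSO replicate 2 or 3 (0.84 and 0.82 on the log2 scale), and without DMSO replicate 1 the log2 fold change was 1.72 (adjusted p = 2.7e-05).

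HLA-DPB1 (chromosome 6, 33075926 to 33087201), the DP beta chain, held 64.5, 58.4 and 58.8 normalized counts with 22d and 74.0, 26.9 and 17.6 with DMSO. DMSO replicate 1 was again the highest library. Its log2 fold change of 0.86 did not pass (SE 0.40, 95% interval -0.003 to 1.73, limma adjusted p = 0.081), but passed without DMSO replicate 1, at 1.44 (adjusted p = 0.0014). HLA-DPA1 and HLA-DPB1 overlap on opposite strands, so part of their reads may belong to the other gene. The log2 ratio of HLA-DPA1 to HLA-DPB1 averaged 2.08 ± 0.35 in 22d libraries and 1.81 ± 0.28 in DMSO libraries (n = 3 each, SD; exact two-sided permutation p = 0.4, 0.5 adjusted).

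CD74 (chromosome 5, 150401637 to 150412929), the invariant chain that fills the peptide groove until the endosome, was by far the most abundant member. It held 11793, 16342 and 15423 normalized counts with 22d and 16600, 14911 and 11410 with DMSO. The groups overlapped fully. The log2 fold change was 0.02 (SE 0.15, limma adjusted p = 0.9), with a 95% interval of -0.30 to 0.35 that leaves out a change as large as that of CIITA. The log2 ratio of CD74 to HLA-DRA was 3.34, 3.41 and 3.62 with 22d and 3.37, 4.13 and 3.76 with DMSO, a difference of -0.30 (exact two-sided permutation p = 0.3, 0.5 adjusted).

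**Figure D2:**
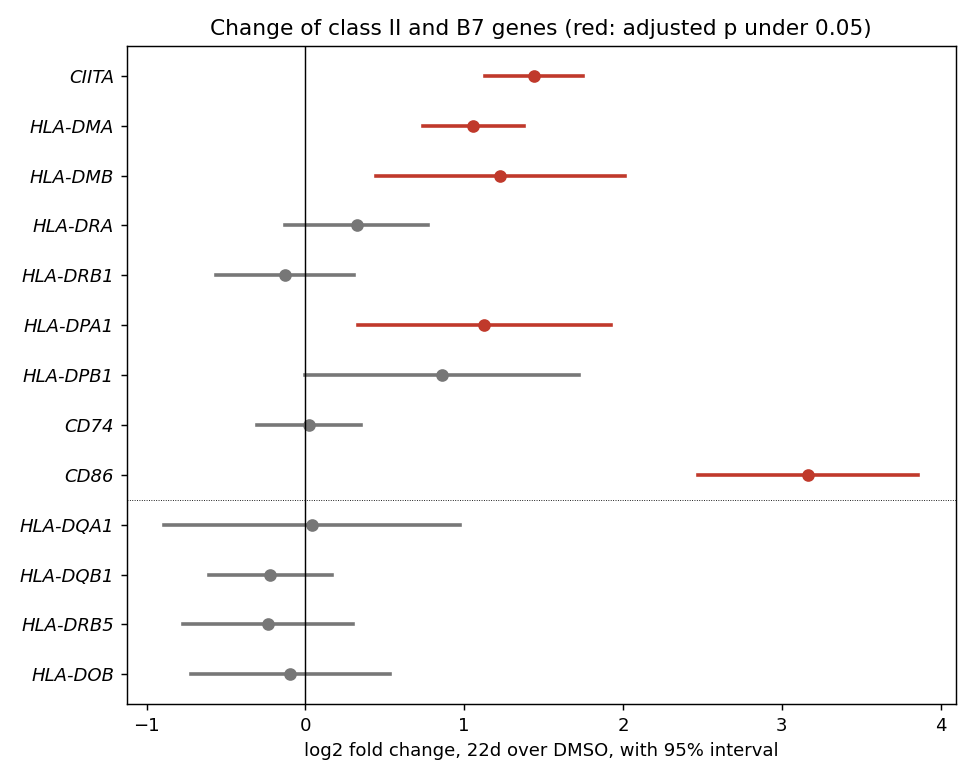
Log2 fold changes of 22d over DMSO with 95% intervals for the 9 tested members, above the dotted line, and the 4 other tested class II genes, below it. The 5 red intervals, of CIITA, HLA-DMA, HLA-DMB, HLA-DPA1 and CD86, belong to the called genes, and that of CD74 lies between -0.30 and 0.35.

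CD86 (chromosome 3, 122055366 to 122121139) had the largest change of the members. It held 71.4, 63.0 and 80.6 normalized counts with 22d and 10.2, 6.21 and 5.49 with DMSO. The groups lay far apart, and the DMSO libraries held only 9, 6 and 5 reads, against 73, 69 and 96 with 22d. The log2 fold change was 3.16 (SE 0.32, 95% interval 2.47 to 3.86, limma adjusted p = 3.8e-06), and in the authors' deposited table it was 2.86. The added 1 before the logarithm pulls this value toward 0, since the ratio of the group means was 9.80.

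CD80 (chromosome 3, 119524293 to 119559602), the other B7 ligand of CD28, was close to absent. Its libraries held 0, 0 and 1 reads with 22d and 1, 3 and 5 with DMSO, under the filter of a mean of 10 normalized counts. The 22d libraries lay at or below the lowest DMSO library, but a count of 0 in a library allows up to 3 reads, and DMSO replicate 3 alone exceeds that. With no filter it was called lower (log2 fold change -1.65, limma adjusted p = 0.022), but not in the authors' deposited table (adjusted p = 0.17). CD80 overlaps TIMMDC1 on the opposite strand. The log2 ratio of CD86 to CD80 was 6.18, 6.0 and 5.47 with 22d and 2.40, 0.81 and 0 with DMSO (exact two-sided permutation p = 0.1, 0.25 adjusted). Its difference of 4.81 rests on the added 1, and was 3.26 with an added 5.

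Levels of different genes were compared per kilobase of the longest coding sequence in GENCODE 29; reads in untranslated ends are counted too, so genes with long ends read high. With 22d, CD74 stood at 16351 ± 2709 normalized counts per kilobase, above HLA-DRA at 1733 ± 257 and HLA-DRB1 at 1050 ± 258 (SD, n = 3 each). HLA-DMA followed at 642 ± 107, CIITA at 338 ± 24.5 and HLA-DPA1 at 335 ± 59.9. HLA-DPB1 (78.2 ± 4.43), CD86 (72.6 ± 8.93) and HLA-DMB (44.9 ± 8.38) came next, and CD80 was last at 0.324 ± 0.561. With 22d, the libraries of CIITA and HLA-DPA1 overlapped, as did those of HLA-DPB1 and CD86; the other neighbours in this order did not overlap. With DMSO, HLA-DPA1 (182 ± 142) came before CIITA (126 ± 23.6), with overlapping libraries (SD, n = 3 each). CD86 with DMSO stood at 7.41 ± 2.60, below HLA-DMB at 19.6 ± 9.58 (SD, n = 3 each), and its libraries did not overlap those of HLA-DMB. The gap of CD74 over every other member was present in both groups.

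DMSO replicate 1 stood apart for several of these genes. It was the highest DMSO library for all 9 tested members. The share of all genes for which it was highest was not counted. A trait of the library and a trait of these genes are thus not told apart. Against the mean of DMSO replicates 2 and 3 it was 3.47 times as high for HLA-DPA1, 3.33 times for HLA-DPB1, 2.13 times for HLA-DMB and 1.89 times for HLA-DRA. For HLA-DMA it was 1.04 times and for CIITA 1.33 times. For HLA-DPA1 and HLA-DPB1 that distance was as large as the distance between the 22d mean and the other two DMSO libraries, at 3.36 and 2.73 times. The source of this spread was not tested. The plot of fold changes with a library left out shows how far it carries.

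**Figure D3:**
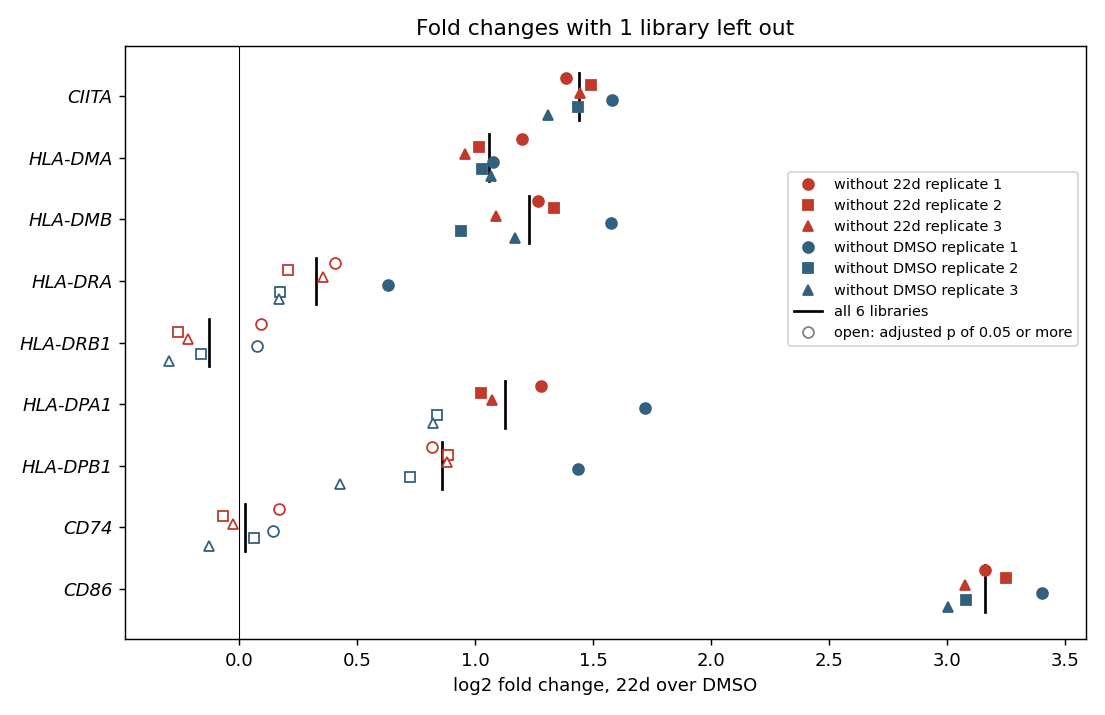
Log2 fold changes of the 9 tested members with each library left out in turn, with a black line at the value from all 6 libraries, red markers for a 22d library left out and blue markers for a DMSO library left out. CIITA, HLA-DMA, HLA-DMB and CD86 passed in all 6 fits (filled), HLA-DMB at an adjusted p of 0.049974 without 22d replicate 3, while HLA-DRA and HLA-DPB1 passed only without DMSO replicate 1.

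The other class II genes that could be tested did not pass. Of the 9 listed, 4 were tested, and 0 were called in either direction, with a median log2 fold change of -0.16. Over all genes tested 58.0% were called in either direction. HLA-DQB1, a DQ beta chain, held 245, 349 and 280 normalized counts with 22d and 428, 301 and 294 with DMSO (95% interval of the log2 fold change -0.61 to 0.17). HLA-DRB5, a further DR beta chain, held 112, 212 and 242 with 22d and 258, 201 and 182 with DMSO. HLA-DQA1 had 13.4 to 32.9 with 22d and 12.1 to 36.4 with DMSO, with a wide 95% interval of the log2 fold change (-0.89 to 0.97). DMSO replicate 1 was the highest DMSO library for these 3 genes as well. HLA-DOB, a chain of the DM inhibitor HLA-DO, had 33.6 to 44.7 with 22d and 27.3 to 51.7 with DMSO, and its partner HLA-DOA, at 0 to 3.36 in all libraries, was under the filter with HLA-DQA2 and HLA-DQB2. HLA-DRB3 and HLA-DRB4 were listed at 0 in every library.

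Of 8 genes for the factors that CIITA docks on, 0 were called higher and 2 lower, with a median log2 fold change of -0.16. Over all genes tested 28.5% were called higher and 29.6% lower, so the share lower is near that of all genes. RFXAP, a subunit of the RFX complex that binds the X box, fell by 0.55 (SE 0.13, limma adjusted p = 0.0033), with 274, 266 and 237 normalized counts with 22d and 368, 370 and 394 with DMSO. NFYA, the sequence-binding subunit of the Y box factor NF-Y, fell by 0.59 (SE 0.13, limma adjusted p = 0.0012). RFX5 (log2 fold change 0.10), RFXANK (-0.13), NFYB (-0.26), NFYC (-0.19), CREB1 (0.18) and ATF1 (0.19) did not pass. The RFXAP call was lost with scaling by library totals (-0.32, adjusted p = 0.070), which moved the median of all genes to 0.23, and RFX5, CREB1 and ATF1 were called higher there, the first and second of these also with quantile normalization. NFYC was called lower without 22d replicate 1 (-0.30).

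Interferon gamma is the classical inducer of CIITA in non-professional antigen-presenting cells, acting through its receptor, JAK kinases and IRF1. Of 10 genes on this arm 5 rose and 0 fell, against 28.5% higher and 29.6% lower over all genes tested, with a median of 0.52. The receptor chain gene IFNGR1 held 1265, 1002 and 937 normalized counts with 22d and 544, 447 and 595 with DMSO, a log2 change of 1.01 (SE 0.15, limma adjusted p = 6.7e-05). The kinase genes JAK2 and JAK1 rose by 1.06 and 0.66, and PRDM1, which encodes a repressor of a CIITA promoter in plasma cells, rose by 0.99. The transcription factor gene IRF1 did not pass, with 895 to 956 normalized counts with 22d and 800 to 928 with DMSO.

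Of 11 tested genes of class II processing and turnover 6 rose and 1 fell, with a median of 0.48. Among all genes tested 28.5% were called higher and 29.6% lower. The 6 include MARCH8, a turnover gene rather than a processing gene, which rose by 0.48 (limma adjusted p = 0.013). IFI30, which encodes a lysosomal thiol reductase that unfolds antigens, held 4006, 3477 and 3959 normalized counts with 22d and 1131, 1059 and 1439 with DMSO (log2 fold change 1.67, SE 0.13, limma adjusted p = 3.5e-07). CTSS, whose protease cathepsin S cuts the invariant chain, held 1563, 1171 and 1258 with 22d and 511, 495 and 591 with DMSO (1.31, SE 0.13, limma adjusted p = 3.8e-06). All 22d libraries lay above all DMSO libraries for both. The cathepsin genes CTSL and CTSD rose by 1.87 and 1.65, and CTSL held only 9, 5 and 17 reads with DMSO. CTSZ fell by 0.37, a call lost with quantile normalization (-0.04), with scaling by library totals (-0.15), and without 22d replicate 2, DMSO replicate 1 or DMSO replicate 2. CD44, whose product is the signalling partner of surface CD74, rose by 1.04 (SE 0.10, limma adjusted p = 1.8e-06). It was the 1 called gene among 4 tested CD74 ligand and partner genes (median 0.15), beside the same shares over all genes. The CD74 ligand gene MIF was listed at 0 in every library, and whether this reflects the RNA or the counting was not tested.

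**Figure D4:**
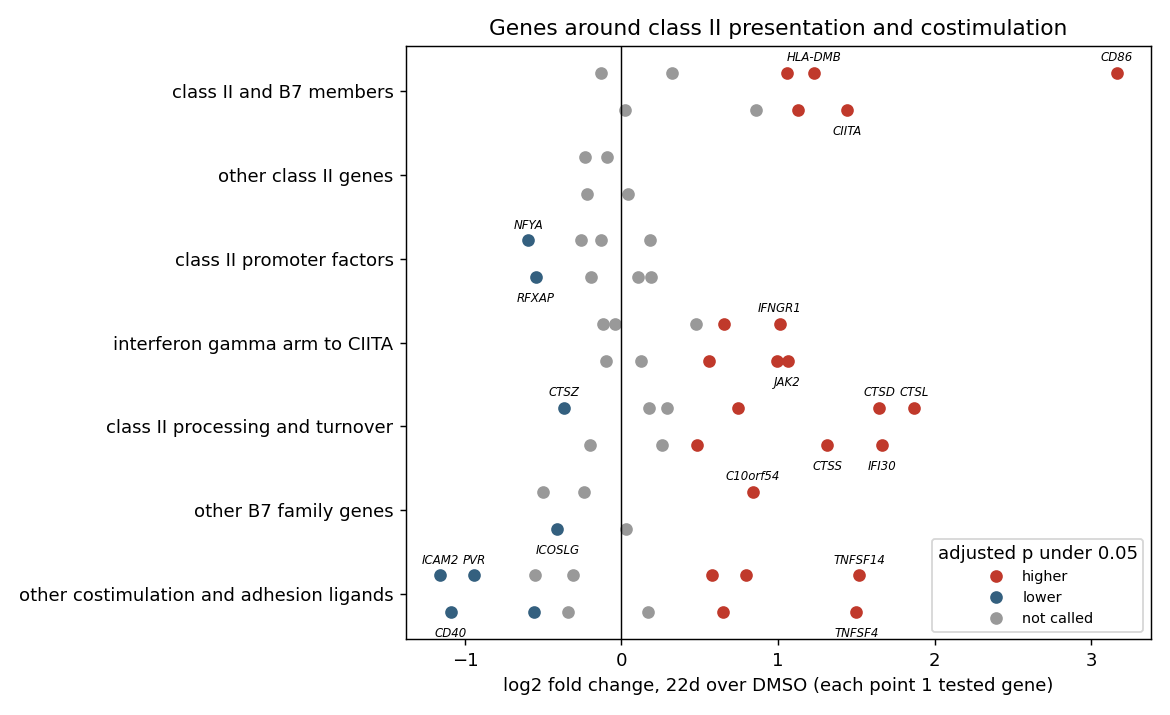
Log2 fold changes of 22d over DMSO for each tested gene (1 point each) of 7 lists around class II presentation and costimulation, red where called higher, blue where called lower and grey where not called. Red points number 6 of 11 for processing and turnover genes, 5 of 10 for the interferon gamma arm and 0 of 8 for promoter factors. Among all genes tested 28.5% were called higher. Differences between lists were not tested.

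Beside CD86, 1 of the 5 other B7 genes tested rose and 1 fell (median -0.24). Over all genes tested 28.5% were called higher and 29.6% lower. C10orf54, which encodes the inhibitory ligand VISTA, held 3266, 3210 and 3530 normalized counts with 22d and 1865, 2063 and 1685 with DMSO (log2 fold change 0.84, SE 0.11, limma adjusted p = 2.7e-05). ICOSLG, the ligand of ICOS, fell by 0.41 (adjusted p = 0.028), a call lost without 22d replicate 1 or DMSO replicates 1 or 2, with scaling by library totals and with quantile normalization. CD274 and PDCD1LG2, which encode the ligands of PD-1, were at or under 5.04 normalized counts in every library, and VTCN1 was listed at 0.

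Of 13 tested ligands outside the B7 family 5 were called higher and 4 lower (28.5% and 29.6% of all genes tested), shares near those of all genes, with a median of -0.31. TNFSF14 and TNFSF4, which encode TNF family ligands of T cell receptors, rose by 1.52 and 1.5, and the adhesion gene CD58, which encodes the ligand of CD2, rose by 0.79. TNFSF4 held only 8, 14 and 4 reads with DMSO. CD70 rose by 0.65, a call lost without 22d replicate 1 (0.55) or DMSO replicate 3 (0.31). ICAM2 fell by 1.16, PVR by 0.94 and LGALS9 by 0.56, the last call being lost with quantile normalization (-0.22). CD40, the receptor through which T cells license antigen-presenting cells, fell by 1.09 (adjusted p = 0.026), but not past the test without 22d replicate 1 or 2, without DMSO replicate 1 or 2, or with scaling by library totals. Among 4 genes of T cell receptors for B7 ligands, PDCD1, which encodes PD-1, was the 1 tested, and rose by 1.87, with 16.4 to 30.2 normalized counts with 22d and 4.39 to 7.24 with DMSO.

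Markers of the cells were measured beside these genes. The myeloid genes CD33, SPI1 and CEBPA were well expressed and did not pass, and of 11 tested myeloid markers 5 rose and 3 fell (median 0.10), beside 28.5% higher and 29.6% lower over all genes tested. The list summed to 51150 to 62955 normalized counts with 22d and 78757 to 98813 with DMSO, of which LYZ alone held 11407 to 21870 with 22d and 38415 to 56489 with DMSO. ITGAX, the CD11c integrin gene of macrophages and dendritic cells, rose by 2.30, and KIT, ITGAM and CSF1R rose by 0.83, 0.80 and 0.78, while MPO, LYZ and FCGR1A fell by 2.59, 1.46 and 0.85. The monocyte marker CD14 was at 0 to 4.20 with 22d and 6.83 to 10.3 with DMSO, under the filter. Of 9 tested dendritic cell markers 2 rose and 4 fell (median -0.03), beside the same shares over all genes: ZBTB46 and CCR7 rose by 1.30 and 2.23, whereas BATF3, FSCN1, IRF8 and CD83 fell by 2.47, 0.81, 0.63 and 0.52, and the CD83 call was lost without 22d replicate 3 or DMSO replicates 1 or 2, with scaling by library totals and with edgeR. CCR7 held only 8, 4 and 1 reads with DMSO, and CD1C, CD1A and LAMP3 were at or under 4.39 normalized counts. The dendritic list summed to 16279 to 18068 normalized counts with 22d and 23101 to 27161 with DMSO, and IRF8 carried most of that sum, with 13856 to 15297 with 22d and 20701 to 24683 with DMSO. Of 4 tested B cell markers 1 rose and 0 fell, beside the same shares over all genes (summed level of the list 153 to 271 with 22d and 174 to 209 with DMSO). BLNK rose by 2.68, with only 6, 7 and 13 reads with DMSO, the others did not pass, and MS4A1 was listed at 0. The T cell markers CD3D and CD2 were listed at 0, and that list summed to 19.2 to 38.6 with 22d and 10.2 to 27.4 with DMSO. The part of these marker changes in the class II and CD86 values was not tested, and in bulk RNA fewer cells of a type and less RNA per cell cannot be told apart.

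Likeness across the 6 libraries was searched among 10020 genes that averaged 100 normalized counts or more, with the members left out. The genes whose log2 levels were most like those of CD86 were MEX3B, CECR1, ITGA7, SNX33 and MST1, each with Pearson r of 0.998 or 0.999. The genes most like CD74 were ATP8B3 (r = 0.986), RASSF4, ADAM8, MED28 and KCNN4 (r = 0.951). MEX3B held 531, 462 and 550 normalized counts with 22d and 203, 159 and 158 with DMSO, and ATP8B3 692, 813 and 815 with 22d and 822, 801 and 680 with DMSO. These correlations over 6 libraries that share 1 treatment contrast describe the libraries, and the highest r among so many genes is bound to be high.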

How the data were processed

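The deposited table of 26364 genes holds a normalized signal per library, the mean signal and, from the authors, a log2 fold change, its error, a test score, a p-value and an adjusted p-value, per the file headers. The tools named are DESeq2, HTSeq, STAR, cutadapt and FastQC, and the build hg38, per the submitters' processing notes; versions, annotation release and strand setting are not given in the sources used here. The signal is a read count divided by 1 size factor per library: 100% of values came out whole within 0.001 read. Columns were matched to libraries by arm and number; 0 per-sample columns were left over.

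Groups were compared with limma-trend after taking log2(value + 1). The fit had no block and held the 13297 genes that averaged 10 normalized counts or more, with Benjamini-Hochberg adjustment over all of them and calls at 0.05; fold changes are on that scale, which shrinks low genes. It was checked on simulated data in which 200 genes changed. The data here had 7718 genes called, and the check does not cover so wide a change. Intervals are limma's 95% intervals; reads carry no molecular identifiers, so floors (3 reads) cover counting error only. Members and lists were chosen with earlier results of these data known. All members were named, with all class II and promoter factor genes. Of each other list, up to 4 called genes per direction with the largest changes were named. IRF1, MARCH8 and genes near 0 were named after their values were seen. Coordinates are from GENCODE 29 and upstream sequences from RefSeq (GRCh38.p14), where 8 of 10 members matched, all but HLA-DRA and CIITA. R 4.3.3, limma 3.58.1, edgeR 4.0.16, DESeq2 1.42.0, Python 3.11.15, scipy 1.17.1 and matplotlib 3.10.9 were used.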

Additional observations from a re-analysis of the deposited data

How the results depend on the processing

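CIITA (log2 fold change 1.31 to 1.66), HLA-DMA (0.96 to 1.28), HLA-DMB (0.94 to 1.58) and CD86 (2.65 to 3.40) were called higher in every setting that tested them. With the filter raised to 50, 3 members were called higher, because HLA-DMB and CD86 are then not tested; with no filter, 1 was called lower. With 1 library left out, 6693 to 7445 genes were called, against 7718, and 4 to 7 members were called higher. With the replicate block 7419 genes and 6 members were called, HLA-DPB1 being added (limma adjusted p = 0.018). Same-numbered libraries did not deviate together (r = -0.025, -0.018 and -0.102), nor did every library correlate best with its own number. Deviations from a group mean cancel within the group, so these r values cannot settle whether same-numbered libraries were paired. The CD86 to CD80 ratio difference was 3.26 with an added 5.

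Some genes that did not pass changed sign in settings where they again did not pass. CD74 lay between -0.13 and 0.17 with a library left out (-0.07 without 22d replicate 2, -0.03 without 22d replicate 3), and HLA-DRB1 between -0.30 and 0.092 (0.076 without DMSO replicate 1). HLA-DQA1 lay between -0.322 and 0.437, and was -0.26 without 22d replicate 2, -0.24 with quantile normalization and -0.006 in the authors' deposited table. HLA-DRB5 lay between -0.451 and 0.098, and HLA-DOB between -0.378 and 0.07 (0.022 without DMSO replicate 3). Scaling by library totals gave 0.091 for HLA-DRB1, 0.088 for RFXANK, 0 for HLA-DQB1, 0.12 for HLA-DOB and 0.027 for NFYC; quantile normalization gave 0.15 for RFXANK. The causes were not tested. HLA-DRA and HLA-DPB1 passed with scaling by library totals (0.54 and 1.08). Low read numbers limit CD80, HLA-DMB and CD86 with DMSO. Among the list genes called higher, CTSL, CCR7, TNFSF4, PDCD1 and BLNK also held few reads with DMSO, at most 17 in a library.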

Other observations

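With the likeness measure extended to HLA-DPA1, a gene chosen after its values were seen, the highest Pearson r over the 6 libraries belonged to BECN1 (r = 0.982), GPC1, STK36, ST3GAL6 and DCUN1D3. ST3GAL6, which encodes a sialyltransferase, held 107, 142 and 104 normalized counts with 22d and 116, 70.3 and 62.5 with DMSO, so its DMSO replicate 1 also lay among the 22d libraries. For HLA-DRA, chosen in the same way, the highest r belonged to MCTP1 (r = 0.978), STK36, RABIF, ST3GAL6 and BECN1, of which STK36, ST3GAL6 and BECN1 are also on the HLA-DPA1 list. The members themselves were left out of this search, so most class II genes could not appear on these lists.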
